A study of Mus musculus with 6 samples.

Results

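The expression of 10 genes for secreted or surface-bound defence proteins of the gut epithelium was followed through 6 mouse colon arrays. The genes, taken as a named list with all probe sets annotated to each alone, were Reg1, Reg3a, Reg3b, Reg3g, Reg4, Retnlb, Ang4, Lypd8, Itln1 and Lyz1. They carried 14 probe sets, out of 18194 genes with a probe set on the array. Of the 10, 7 passed a filter on weak signal and were tested among 10916 genes, while Reg1, Reg3a and Itln1 did not pass.

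Colon was taken from C57BL/6 mice aged 6 to 8 weeks, 24 h after all groups had received ethanol by rectal injection. The groups were wild type (WT), a knockout labelled GPR41 KO and a knockout labelled GPR43 KO, with 2 arrays each, called replicate 1 and replicate 2 after the numbers in their titles. Paired values below give replicate 1 first. GPR41, encoded by Ffar3, and GPR43, encoded by Ffar2, are receptors for short-chain fatty acids, which bacteria make from fibre in the colon. Untreated colon was not analysed here, and every comparison sets one genotype against another after the same treatment. The labels do not say how either knockout was made, or whether the arrays of a group came from separate animals. The p-values therefore measure the spread between these arrays, which may be technical. With 2 arrays against 2, an exact permutation test of a single gene cannot give a two-sided p below 0.333, so all p-values come from the limma fit across all tested genes.

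Values are MAS5 signals on a linear scale, already scaled by the authors to the same trimmed mean (500.0) in every array. The targeted receptor was read first. Ffar2 gave a signal of 1194 and 1118 in the WT arrays, 1857 and 1933 in GPR41 KO, and 1598 and 189 in the libraries labelled GPR43 KO replicates 1 and 2. Its second probe set gave the same picture, with 1142 and 76.3 in the libraries labelled GPR43 KO. The library labelled GPR43 KO replicate 1 thus held Ffar2 signal above WT, and GPR43 KO results are also given without it. No probe set of this array was annotated to Ffar3, which left the GPR41 KO label without a check. Principal component 1, with 59.6% of the variance over the tested genes, placed WT at -24.6 and -44.05 and the other 4 arrays between 11.1 and 20.05. The tissue label was read against 14 pan-epithelial markers, whose summed signal was 204679 and 232686 in WT replicates 1 and 2, 277845 and 258051 in GPR41 KO, and 290173 and 265234 in GPR43 KO. All 14 passed the filter on weak signal. In whole colon, fewer cells of a type and less RNA per cell cannot be told apart, which holds for every gene below.

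The gut epithelium keeps bacteria at a distance with mucus and with secreted proteins that bind or kill them. C-type lectins of the Reg3 family bind the cell walls of bacteria, and their genes are induced by microbial signals through MyD88 and by IL-22 through STAT3. Goblet cells, the mucus cells of the crypt, make resistin-like molecule beta (Retnlb) and, in colon, angiogenin 4. Deep crypt secretory cells, which are goblet-like cells of the colon crypt base, are marked by Reg4. Lysozyme is made from one gene by Paneth cells of the small intestine (Lyz1) and from a neighbouring gene by macrophages and neutrophils (Lyz2).

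Across the members, 3 genes passed the main test between a knockout and WT. Reg4 was several fold higher in both knockouts than in WT, the main Lyz1 probe set was lower in both, and Reg3b was lower in GPR41 KO. That Lyz1 probe set may also hold Lyz2 transcript, and a weak Lyz1 probe set below the filter did not fall with it. Of the 7 tested members, 3 passed an adjusted p of 0.05 in GPR41 KO against WT, 1 higher and 2 lower, where 4.97% of all tested genes were called, 1.86% higher and 3.11% lower. In GPR43 KO against WT, 2 of 7 passed, 1 higher and 1 lower, where 3.96% of all genes were called, 1.55% higher and 2.41% lower. Without the library labelled GPR43 KO replicate 1, 0 of the 7 members and 222 of all tested genes passed in that comparison in limma. Between GPR43 KO and GPR41 KO, 0 of 7 passed, where 0 of 10916 genes were called in the limma fit and 596 (5.46%) had an unadjusted p under 0.05. The median log2 fold change of the tested members was -0.03 in GPR41 KO and 0.42 in GPR43 KO, beside 0.00 and 0.03 over all tested genes. Both knockout comparisons use the same WT arrays and are not independent of each other.

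**Figure D1:**
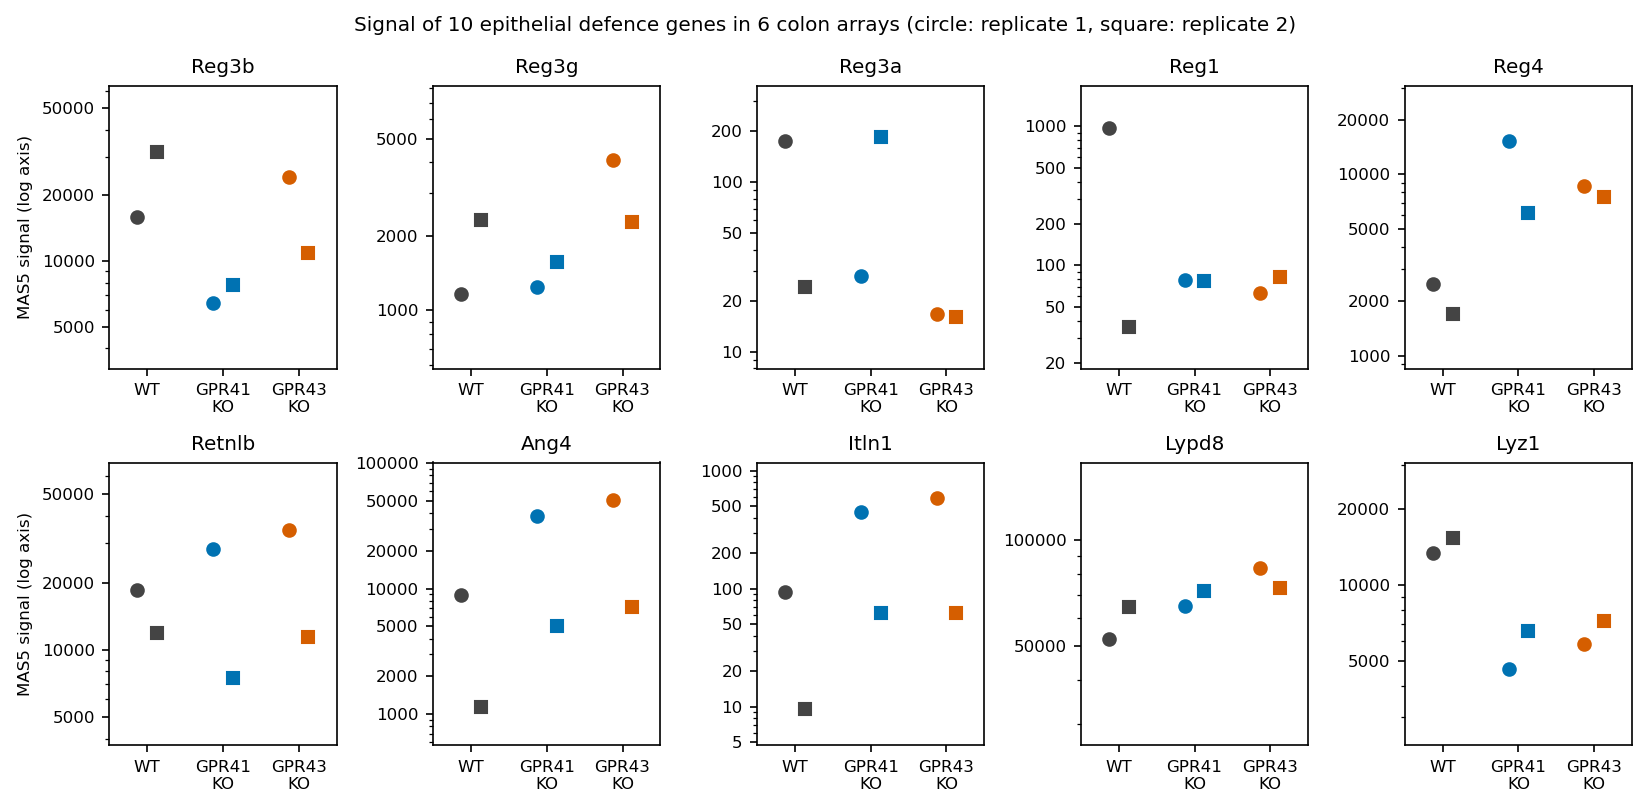
MAS5 signal (log axis) of the main probe set of each of the 10 genes, 1 point per array, circles for replicate 1 and squares for replicate 2. Reg4 lies higher and Lyz1 lower in all 4 knockout arrays than in both WT arrays, while Ang4, Itln1 and Retnlb split by replicate number within each group.

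**Figure D2:**
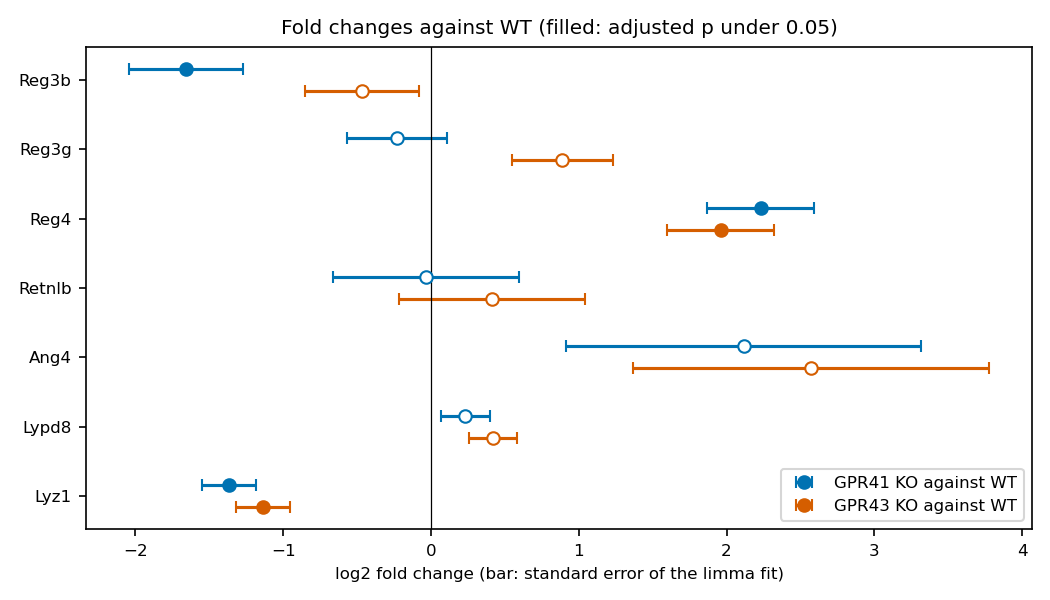
Log2 fold change against WT of the 7 tested members with its standard error from the limma fit, for GPR41 KO and GPR43 KO. Reg4 stands at 2.23 and 1.96 and Lyz1 at -1.37 and -1.14, while the widest errors belong to Ang4.

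Reg3b and Reg3g, the pair described first, lie in the Reg cluster of mouse chromosome 6, with Reg3b at chr6:78370885-78373466 and Reg3g at chr6:78466269-78468874 (GRCm38.p6). Reg3a (chr6:78380709-78383839) and Reg1 (chr6:78425983-78428668) lie between them. Reg4 lies on chromosome 3 (chr3:98222138-98236748). The promoters of Reg3b, Reg3g, Reg4 and Ang4, members whose values differed between groups or arrays, are shown so that the shared letters of Reg3b and Reg3g can be set beside the Reg4 and Ang4 promoters. Each is the 250 bases before the start, taken from RefSeq (GRCm38.p6) and written 5′ to 3′ on the strand of the gene. Reg3b is at chr6:78370635-78370884 on the plus strand, Reg3g at chr6:78468875-78469124 on the minus strand, Reg4 at chr3:98221906-98222155 on the plus strand and Ang4 at chr14:51773591-51773840 on the minus strand. Capitals mark TATAAA, the letters of a TATA box, and TTCNNNGAA, the letters of a STAT site, on either strand. The Reg4 window ends just inside the annotated span of the gene.

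Reg3b: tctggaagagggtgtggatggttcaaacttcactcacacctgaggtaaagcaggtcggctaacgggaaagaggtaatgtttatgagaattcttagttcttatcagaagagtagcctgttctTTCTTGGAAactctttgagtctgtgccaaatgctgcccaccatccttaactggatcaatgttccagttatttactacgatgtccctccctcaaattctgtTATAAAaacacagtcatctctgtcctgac

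Reg3g: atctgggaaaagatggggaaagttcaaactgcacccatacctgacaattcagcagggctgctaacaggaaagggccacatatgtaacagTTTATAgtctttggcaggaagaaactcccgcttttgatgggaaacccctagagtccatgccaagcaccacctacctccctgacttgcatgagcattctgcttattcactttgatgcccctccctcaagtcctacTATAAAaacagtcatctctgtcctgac

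Reg4: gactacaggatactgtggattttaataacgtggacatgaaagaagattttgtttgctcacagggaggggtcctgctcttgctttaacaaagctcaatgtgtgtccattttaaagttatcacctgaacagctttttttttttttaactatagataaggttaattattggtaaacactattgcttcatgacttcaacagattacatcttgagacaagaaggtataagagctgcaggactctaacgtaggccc

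Ang4: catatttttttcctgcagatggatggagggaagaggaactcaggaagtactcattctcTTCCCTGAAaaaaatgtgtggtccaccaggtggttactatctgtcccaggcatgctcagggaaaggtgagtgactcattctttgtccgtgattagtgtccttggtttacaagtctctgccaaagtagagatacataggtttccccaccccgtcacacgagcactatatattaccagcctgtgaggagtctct

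The Reg3b and Reg3g stretches were identical in 68.9% of aligned positions, with a longest shared run of 20 bases. Reg3b and Reg4 reached 49.5% with a longest run of 7 bases. TATAAA stood 29 to 24 bases before the start in Reg3b and 27 to 22 bases before it in Reg3g, and once more on the other strand 161 to 156 bases before the start of Reg3g. TTCNNNGAA was found in Reg3b as TTCTTGGAA, 129 to 121 bases before the start, and in Ang4 as TTCCCTGAA, 192 to 184 bases before it. A RefSeq window was given for 9 of the 10 members, 10 windows in all. TATAAA was in 3 of them and in 12.4% of all 32851 windows of the same length, and TTCNNNGAA was in 2 of them and in 7.02% of all. These are matches of letters and do not show binding.

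Reg3b, a lectin that acts mostly on Gram-negative bacteria, gave a signal of 15979 and 31665 in the WT arrays, 6469 and 7833 in GPR41 KO, and 24240 and 10954 in GPR43 KO. Both GPR41 KO arrays lay below both WT arrays, as they did for 25.3% of all tested genes, and the GPR43 KO arrays overlapped WT. The mean fell from 23822 ± 11092 (SD, n = 2) in WT to 7151 ± 965 (SD, n = 2) in GPR41 KO, a ratio of 0.300. Its log2 fold change was -1.66 ± 0.38 (SE), with an adjusted p of 0.0451 in limma. This call lies close to the threshold. It was lost without WT replicate 2 (-1.16, adjusted p = 0.15) and without either GPR41 KO array (-1.52 with 0.229 and -1.80 with 0.136), and under 5 of the other settings. Against WT, GPR43 KO differed by -0.46 ± 0.38 (SE), with an adjusted p of 0.552. Without the library labelled GPR43 KO replicate 1 that value was -1.04, and without replicate 2 it was 0.11.

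The second Reg3b probe set gave 16817 and 24662 in the WT arrays, 5437 and 7433 in GPR41 KO, and 20738 and 9307 in GPR43 KO. Over the 6 arrays, the centred log2 profiles of both probe sets differed by a root mean square of 0.140. Both ranked the 6 arrays alike.

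Reg3g, the lectin that keeps Gram-positive bacteria away from the mucosal surface, gave a signal of 1162 and 2324 in the WT arrays, 1244 and 1578 in GPR41 KO, and 4087 and 2291 in GPR43 KO. Both WT arrays together enclosed the GPR41 KO arrays, and the GPR43 KO arrays lay just below and above the higher WT array. Log2 fold changes against WT were -0.23 ± 0.34 (SE, adjusted p = 0.763) in GPR41 KO and 0.89 ± 0.34 (SE, adjusted p = 0.193) in GPR43 KO by limma. Without WT replicate 2, the array with the higher Reg3g, the GPR43 KO value was 1.38 with an adjusted p of 0.0429. Leaving out the library labelled GPR43 KO replicate 1 instead gave 0.47, with an adjusted p of 0.580.

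The knockouts stood apart from each other in the same direction for both lectins, without passing the test. Reg3b was higher in GPR43 KO than in GPR41 KO by 1.19 ± 0.38 (SE) on the log2 scale, with an adjusted p of 0.870 in limma. For Reg3g the difference was 1.12 ± 0.34 (SE), also with an adjusted p of 0.870. In both genes the 2 GPR43 KO arrays lay above the 2 GPR41 KO arrays, as did those of 23.1% of all tested genes. The library labelled GPR43 KO replicate 1 held the highest Reg3g of all 6 arrays and the second highest Reg3b. Without it the differences between the knockouts were 0.62 for Reg3b and 0.70 for Reg3g.

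Reg3a, a further Reg3 lectin, gave 176 and 24.1 in the WT arrays, 28.1 and 185 in GPR41 KO, and 16.7 and 15.9 in GPR43 KO. One array of WT and one of GPR41 KO stood above the rest. Its mean did not pass the filter, which kept genes with a mean log2 signal of about 126 or more on the linear scale. In a fit of all genes without the filter, Reg3a gave 0.10 and -1.39 against WT in GPR41 KO and GPR43 KO, with adjusted p-values of 0.981 and 0.497 in limma.

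A list of 41 genes held cytokines of the IL-22, IL-17, IL-6 and IL-4/IL-13 families with their receptors, STATs and inhibitors, so not all of them induce Reg3 genes, and 23 were tested. In GPR41 KO, 6 of the 23 fell and none rose, and in GPR43 KO, 4 fell and none rose. The list medians were -0.38 and -0.36, and without the library labelled GPR43 KO replicate 1, 4 fell in GPR43 KO too. Socs3, a feedback inhibitor that STAT3 induces, gave 1499 and 2996 in the WT arrays, 256 and 205 in GPR41 KO, and 420 and 255 in GPR43 KO. It fell in both, to -3.11 and -2.63 in log2 units, with adjusted p-values of 0.00166 and 0.00436 in limma. Osm, a cytokine of the IL-6 family made by myeloid cells, fell by 3.75 in GPR41 KO (adjusted p = 0.00443). In GPR43 KO it stood at -2.37 (adjusted p = 0.0397), a call lost without WT replicate 2 (0.189) and without either GPR43 KO array (0.107 and 0.188). Il1b, the inflammatory cytokine IL-1 beta, fell in both (-5.99 and -5.68). Il33, an alarmin of epithelium and stroma, fell in both as well (-2.52 and -2.30). Il22 itself had a probe set only together with other symbols and is not reported.

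The list of Toll-like and NOD-like receptor signalling had 13 tested genes, of which 1 fell in GPR41 KO and 2 fell in GPR43 KO. Irak3, an inhibitor of this signalling, stood at -1.31 (adjusted p = 0.0215) and -1.45 (adjusted p = 0.0173). Each Irak3 call was lost without WT replicate 2 (0.142 and 0.102) and without either array of the knockout concerned, with adjusted p-values of 0.0576 to 0.125. Myd88, the adaptor of these receptors, stood at -0.84 in GPR43 KO, and lost that call under 8 settings other than leaving out an array. It was also lost in 4 of the 6 runs that left out 1 array, with an adjusted p of up to 0.241.

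Neutrophil markers were read beside Reg3b. All 10 tested neutrophil markers fell in both knockouts, with a median log2 fold change of -5.25 (GPR41 KO) and -5.02 (GPR43 KO), each against WT. The summed signal of the 16 neutrophil markers with a probe set was 79294 and 144044 in WT replicates 1 and 2, 1362 and 1368 in GPR41 KO, and 3564 and 1374 in GPR43 KO. All 10 also fell in GPR43 KO when the library labelled GPR43 KO replicate 1 was left out. In the library labelled GPR43 KO replicate 1, with a neutrophil sum of 3564, the Reg3b signal (24240) lay between those of WT replicates 1 and 2 (15979 and 31665). The part of these cells in the Reg3b result was not tested. Genes with the profile nearest to that of Reg3b were Ms4a6c, Clu and Ifnar2, at root mean square differences of 0.283, 0.316 and 0.342 on the centred log2 scale over 6 arrays.

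Reg4, which marks deep crypt secretory cells of the colon, was the one member that rose. The signal was 2499 and 1696 in WT replicates 1 and 2, 15397 and 6154 in GPR41 KO, and 8616 and 7543 in GPR43 KO. All 4 knockout arrays lay above both WT arrays, as did 24.6% of tested genes in GPR41 KO and 27.7% in GPR43 KO. Group means were 2097 ± 568 (SD, n = 2) in WT, 10775 ± 6535 (SD, n = 2) in GPR41 KO and 8079 ± 758 (SD, n = 2) in GPR43 KO. Ratios to WT were 5.14 and 3.85.

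In GPR41 KO the Reg4 log2 fold change was 2.23 ± 0.36 (SE), with an adjusted p of 0.00991 in limma. That call held in every run that left out 1 array, with fold changes of 1.57 to 2.89. In GPR43 KO it was 1.96 ± 0.36 (SE), with an adjusted p of 0.0221. The GPR43 KO call was lost without WT replicate 2 (1.68, adjusted p = 0.0687), without GPR43 KO replicate 1 (1.86, 0.0988) and without GPR43 KO replicate 2 (2.06, 0.0993). The knockouts differed from each other by -0.27 ± 0.36 (SE), with an adjusted p of 0.943.

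Other markers of the Reg4 cell type were read beside it. Of 10 deep crypt secretory cell markers, 1 rose in GPR41 KO and 2 rose in GPR43 KO, with list medians of 0.26 and 0.37. Agr2, a chaperone needed for mucin folding, stood at 0.65 (adjusted p = 0.0391) and 0.75 (adjusted p = 0.0250) in limma. In each comparison its call was lost in 5 of the 6 runs that left out 1 array, all but that without WT replicate 1, with adjusted p-values up to 0.240 and 0.172. Spink4, a secreted protease inhibitor of goblet cells, stood at 0.81 (adjusted p = 0.0979) and 1.05 (adjusted p = 0.0463), and its GPR43 KO call was lost in the same 5 runs, with adjusted p-values up to 0.214. The summed signal of the 10 markers was 105237 and 92716 in WT replicates 1 and 2, 145363 and 136124 in GPR41 KO, and 167071 and 146473 in GPR43 KO. Markers of this list that are not goblet cell markers did not pass in GPR41 KO or GPR43 KO, and did not all follow Reg4. Cd24a stood at 0.53 and 0.42, Atoh1 at 0.30 and 0.36, and Kit at -0.10 and 0.28. Dll1 stood at -0.14 and -0.04, Dll4 at -0.03 and -0.01, and Egf at -0.02 and -0.08. Agr2, Spink4, Tff3 and Spdef are also on the list of 20 goblet cell markers, of which 1 rose in GPR41 KO and 2 rose in GPR43 KO. Without the library labelled GPR43 KO replicate 1, 0 passed on either list in GPR43 KO in limma, with medians of 0.36 and 0.55.

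The goblet cell sum was 305334 and 288776 in WT replicates 1 and 2, 395149 and 368627 in GPR41 KO, and 489047 and 404622 in GPR43 KO. Absorptive colonocyte markers, a list of 28 tested genes, had 7 higher and 2 lower in GPR41 KO, and 5 higher and 2 lower in GPR43 KO, where 0 and 1 passed without that library. Their sum was 343612 and 360580 in WT against 444502 to 513658 in the knockouts. These sums of deep crypt, goblet and absorptive cell markers were thus higher in all 4 knockout arrays. So was the pan-epithelial sum, at 204679 and 232686 in WT against 258051 to 290173 in the knockouts. Gene by gene, 2 of the 14 pan-epithelial markers rose in GPR41 KO and 0 in GPR43 KO, with medians of 0.26 and 0.33. Bright genes weigh most in such sums. The sum of genes that mark position along the colon was 48774 and 59574 in WT against 70655 to 89514 in the knockouts. That list mixes proximal and distal genes, so its sum cannot show a position, and 1 of its 11 tested genes rose in each knockout. Some genes are on more than 1 of these lists, and the part of all these sums in the Reg4 result was not tested. Enteroendocrine and tuft cell markers overlapped between groups, with a sum of 27718 and 29413 in WT replicates 1 and 2, 26370 and 29012 in GPR41 KO, and 32718 and 25879 in GPR43 KO. Clca4a, Scd2 and Gstm3 had the profiles nearest to Reg4, at 0.333, 0.388 and 0.448. Clca4a, an absorptive colonocyte marker, gave 6019 and 4865 in the WT arrays, 22301 and 12315 in GPR41 KO, and 13627 and 14272 in GPR43 KO. The 2 lower genes of the absorptive list were Clca4b and Vill. Clca4b stood at -2.29 (adjusted p = 0.00173) in GPR41 KO and -1.78 (adjusted p = 0.00664) in GPR43 KO in limma. Vill stood at -1.45 (adjusted p = 0.0101) and -1.20 (adjusted p = 0.0291).

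Lysozyme 1 lies next to lysozyme 2 on chromosome 10, at chr10:117287795-117292868 and chr10:117277541-117282272. Their promoters are shown because the proximal stretch is the same in both. The Lyz1 stretch is at chr10:117292869-117293118 and the Lyz2 stretch at chr10:117282273-117282522, both on the minus strand, from RefSeq (GRCm38.p6). Capitals mark the longest run that both share.

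Lyz1: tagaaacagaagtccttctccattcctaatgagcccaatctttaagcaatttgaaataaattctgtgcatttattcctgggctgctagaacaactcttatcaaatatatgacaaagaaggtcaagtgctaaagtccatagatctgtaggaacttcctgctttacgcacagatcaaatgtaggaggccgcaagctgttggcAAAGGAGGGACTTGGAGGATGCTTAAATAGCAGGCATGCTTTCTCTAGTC

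Lyz2: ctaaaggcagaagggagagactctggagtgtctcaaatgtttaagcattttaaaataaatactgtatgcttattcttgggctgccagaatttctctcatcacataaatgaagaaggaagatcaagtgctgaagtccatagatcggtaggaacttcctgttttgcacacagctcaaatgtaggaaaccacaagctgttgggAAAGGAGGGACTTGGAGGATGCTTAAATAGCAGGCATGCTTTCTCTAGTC

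The shared run covered the 50 bases before the start, and 78.8% of aligned positions were identical over the 250 bases. The transcripts of so similar a gene pair can also share probe sequence, so signal from a Lyz1 probe set may hold Lyz2 transcript.

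The Lyz1 probe set with the highest signal gave 13415 and 15309 in the WT arrays, 4648 and 6605 in GPR41 KO, and 5845 and 7236 in GPR43 KO. All 4 knockout arrays lay below both WT arrays, which held for 25.3% of tested genes in GPR41 KO and 22.9% in GPR43 KO. Means were 14362 ± 1339 (SD, n = 2) in WT, 5627 ± 1384 (SD, n = 2) in GPR41 KO and 6541 ± 983 (SD, n = 2) in GPR43 KO, ratios to WT of 0.392 and 0.455. In GPR41 KO the log2 fold change was -1.37 ± 0.18 (SE), with an adjusted p of 0.00409 in limma, and it held in every run that left out 1 array (-1.62 to -1.12). In GPR43 KO it was -1.14 ± 0.18 (SE), with an adjusted p of 0.0122. Without the library labelled GPR43 KO replicate 1 the adjusted p was 0.0783, at -0.98.

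The 3 Lyz1 probe sets did not read alike. A second probe set gave 3592 and 2655 in the WT arrays, 1162 and 1533 in GPR41 KO, and 1587 and 1667 in GPR43 KO, again with all knockout arrays below WT. The third gave 40.9 and 24.7 in the WT arrays, 26.9 and 36.2 in GPR41 KO, and 85.2 and 57.2 in GPR43 KO, all below the filter, with the GPR43 KO arrays the highest. The first 2 have names ending in x_at, the array maker's mark for probes that may also match other transcripts, and the third does not. The third differed from the first by a root mean square of 0.867 on the centred log2 scale, the second by 0.217. Averaged over all 3 probe sets, the GPR43 KO value was -0.42, with an adjusted p of 0.256.

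Lyz2, the lysozyme of macrophages and neutrophils, gave 11925 and 15689 in the WT arrays, 5210 and 6691 in GPR41 KO, and 7727 and 7198 in GPR43 KO. Its profile differed from that of the first Lyz1 probe set by 0.176, less than the second Lyz1 probe set did. Lyz2 stood at -1.21 ± 0.17 (SE, adjusted p = 0.00494) in GPR41 KO and at -0.87 ± 0.17 (SE, adjusted p = 0.0271) in GPR43 KO by limma. Without GPR41 KO replicate 1 the first adjusted p was 0.0524. Without WT replicate 2 or either GPR43 KO array the second was 0.0821, 0.0959 and 0.165.

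**Figure D3:**
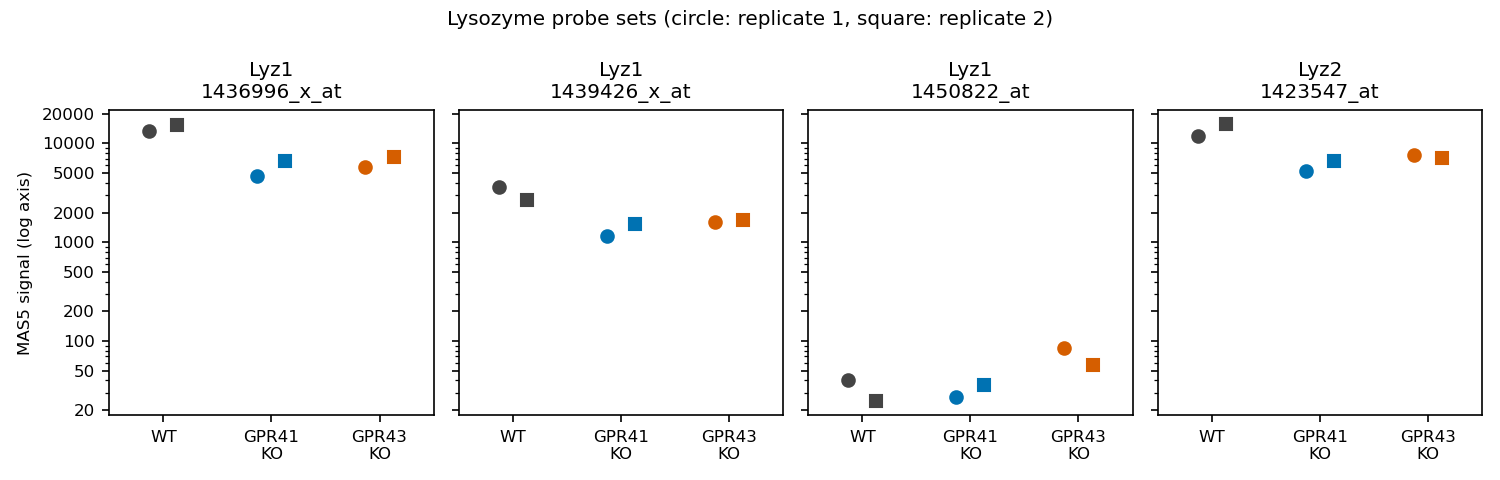
MAS5 signal (log axis) per array of the 3 Lyz1 probe sets and of Lyz2, circles for replicate 1 and squares for replicate 2. The 2 brighter Lyz1 probe sets and Lyz2 are lower in all 4 knockout arrays, and the third Lyz1 probe set stays at or below 85.2 everywhere.

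Markers of macrophages and of Paneth cells were read beside Lyz1. Neutrophils also make Lyz2, and all 10 tested neutrophil markers fell in both knockouts, with medians of -5.25 and -5.02. Of 17 tested macrophage and monocyte markers, a list that holds Lyz2, 8 fell in each knockout and none rose, with medians of -1.21 and -0.87. In GPR43 KO, 5 fell when the library labelled GPR43 KO replicate 1 was left out. Their sum was 37372 and 59275 in WT replicates 1 and 2, 16362 and 20592 in GPR41 KO, and 24075 and 21652 in GPR43 KO. The smallest p-values in limma belonged to Fcgr3, Tyrobp, Cd14 and Fcer1g. The 9 that did not pass ran from Aif1 (-1.27 in GPR41 KO and -1.05 in GPR43 KO) to Ms4a7 (0.06 and 0.23). Among them Csf1r stood at -0.55 and -0.17, C1qa at -0.32 and -0.08, and Mrc1 at -0.20 and -0.13. Of 17 listed Paneth cell markers, 6 had a probe set and 4 were tested. Their median was 0.11 in GPR41 KO and 0.23 in GPR43 KO. Mmp7, the protease that activates Paneth cell defensins, stood at -1.84 (adjusted p = 0.0171) and -1.81 (adjusted p = 0.0228) in limma. The other 3 did not pass, with Clps at 1.04 and 1.35, Sox9 at 0.27 and 0.30, and Pnliprp2 at -0.05 and 0.16. Both Mmp7 calls were lost when WT replicate 2 was left out (0.0937 and 0.106). So was the first without GPR41 KO replicate 1 (0.121), and the second without either GPR43 KO array (0.0586 and 0.143). The summed Paneth signal was 2738 and 2034 in WT replicates 1 and 2, 3164 and 2610 in GPR41 KO, and 3989 and 2735 in GPR43 KO, so 2 of the 4 knockout arrays lay above both WT arrays in this sum. Defa3, the one listed defensin with a probe set, stayed between 18.1 and 82.0 in all arrays. Whether the Lyz1 signal came from macrophages, neutrophils or Paneth cells was not tested. Nearest to Lyz1 in profile were Cd84, Abca1 and Col4a1, at 0.0815, 0.108 and 0.119, with Lyz2 at place 21 of 10909 genes.

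Ang4, an RNase of the angiogenin family with activity against bacteria, lies at chr14:51763892-51773590. Its main probe set, with a name ending in x_at as in Lyz1, gave 8879 and 1138 in the WT arrays. It gave 38044 and 5056 in GPR41 KO, and 50573 and 7178 in GPR43 KO. Within each group replicate 1 was far above replicate 2, by ratios of 7.81, 7.52 and 7.05. The groups overlapped, and this ratio between arrays of a group exceeded that between group means. Each knockout array lay above the WT array of the same number. Ratios of the group means to WT were 4.30 and 5.77. The log2 fold changes of 2.12 ± 1.20 (SE) and 2.57 ± 1.20 (SE) had adjusted p-values of 0.386 and 0.278 in limma. The GPR43 KO value was 1.17 and its adjusted p 0.721 when the library labelled GPR43 KO replicate 1 was left out. A second Ang4 probe set, without x_at in its name, gave 6175 and 692 in the WT arrays, 27187 and 4037 in GPR41 KO, and 34226 and 5616 in GPR43 KO. It ordered all 6 arrays alike. With a replicate block, an alternative fit given below, Ang4 passed in both knockouts, though the labels do not pair arrays by number.

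Intelectin 1 (Itln1, chr1:171518123-171535325), a lectin that binds sugars found on microbes, was likewise higher in replicate 1 of each group. It gave 94.9 and 9.50 in the WT arrays, 450 and 63.1 in GPR41 KO, and 589 and 62.0 in GPR43 KO. Replicate 2 of each group and both WT arrays lay below the filter level of about 126, so no ratio is given. Itln1 did not pass the filter, and in the fit without it the log2 fold changes were 1.80 and 1.97, with adjusted p-values of 0.521 and 0.457.

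Retnlb (chr16:48816856-48818892), the goblet cell protein RELM beta that acts on Gram-negative bacteria, gave 18606 and 11951 in the WT arrays, 28316 and 7485 in GPR41 KO, and 34610 and 11398 in GPR43 KO. In each group replicate 1 was higher, by 1.56, 3.78 and 3.04. The knockout arrays lay on both sides of the WT arrays. Log2 fold changes were -0.03 ± 0.63 (SE, adjusted p = 0.987) and 0.41 ± 0.63 (SE, adjusted p = 0.762) in limma. The latter was -0.39 without the library labelled GPR43 KO replicate 1.

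The split by number was rare among other genes. Of 10916 tested genes, 3 (0.0275%) had replicate 1 at least 2-fold above replicate 2 in all 3 groups, namely Ang4, Mptx1 and Pnliprp2, and 0 had the reverse. At any size of difference, 964 genes (8.83%) were higher in replicate 1 in all 3 groups and 1192 (10.9%) in replicate 2. Mptx1, a pentraxin of the mucosa chosen after its values were seen, gave 7687 and 2191 in the WT arrays, 30690 and 7493 in GPR41 KO, and 36458 and 7901 in GPR43 KO. It was the gene nearest in profile to Ang4 (0.501), and Pnliprp2, a lipase on the Paneth cell list, was nearest to Retnlb (0.181). The labels give the replicate numbers no meaning across groups.

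**Figure D4:**
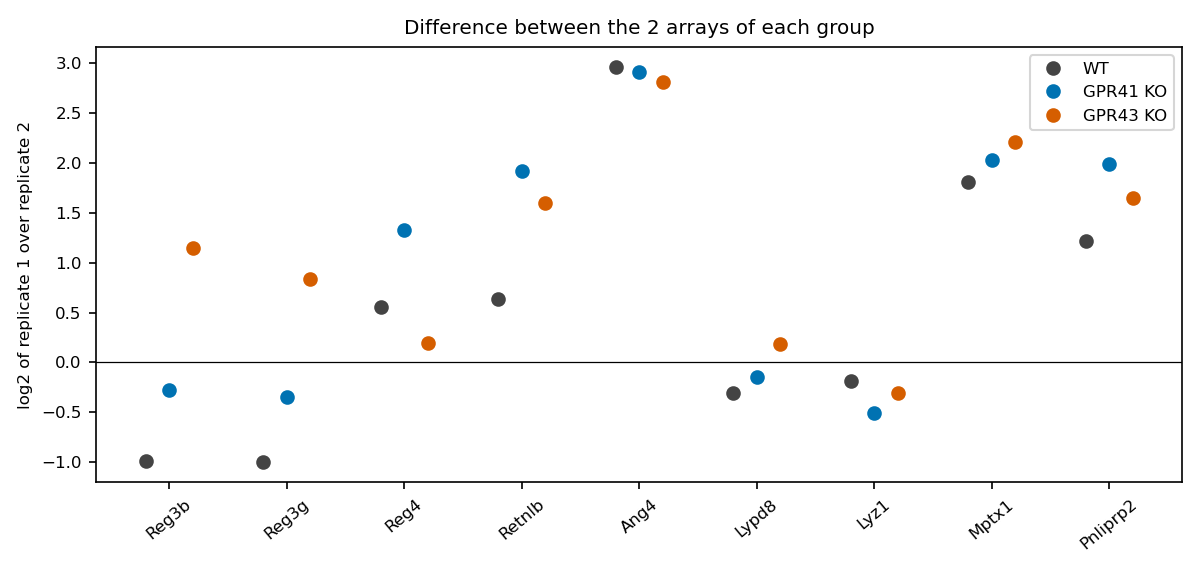
Log2 of the ratio of replicate 1 to replicate 2 within each group for the 7 tested members, Mptx1 and Pnliprp2, with 0 marking equal signal. As plain ratios, Ang4 lies between 7.05 and 7.81 in all 3 groups, while Reg3b and Reg3g lie below 1 in WT and above 1 in GPR43 KO.

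Reg1, a Reg protein made in quantity by the exocrine pancreas, gave 976 in WT replicate 1 and 36.3 in WT replicate 2. The knockouts gave 78.5 and 76.9 in GPR41 KO and 63.8 and 83.0 in GPR43 KO. Reg1 was thus high in 1 array alone, and below the filter level of about 126 in the other 5. In the fit without the filter its log2 fold changes were -1.28 and -1.35, with adjusted p-values of 0.654 and 0.628.

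Reg2 and Reg3d, relatives in the same cluster, were also highest in that array. Reg2 gave 1685 in WT replicate 1 against 47.0 to 161 in the other 5 arrays, and Reg3d gave 185 against 34.7 to 81.1. Of 12 pancreatic acinar markers that are not goblet cell markers, 10 were highest in WT replicate 1. In 9 of them (75%) that array was over 2-fold above all the others, as it was in 129 (0.709%) of all 18194 genes with a probe set. Only 3 of the 12 passed the filter. With weaker signals of the other arrays raised to the filter level of about 126, the counts were 7 of 12 and 17 of 18194 (0.0934%). Cpa1, a carboxypeptidase, gave 492 against 3.54 to 11.9, and the chymotrypsinogen Ctrb1 gave 1120 against 12.5 to 57.9, both named after their values were seen. The exceptions were Cela1, Ctrc and Rnase1, of which Rnase1 was highest in that array, at 154 against up to 106. The summed signal of the 12 markers was 12019 and 4690 in WT replicates 1 and 2, 8845 and 8900 in GPR41 KO, and 8639 and 12428 in GPR43 KO, a sum in which Cela1 alone made up 7101 of the first value. The part of pancreatic RNA in the Reg1 signal of that array was not tested.

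**Figure D5:**
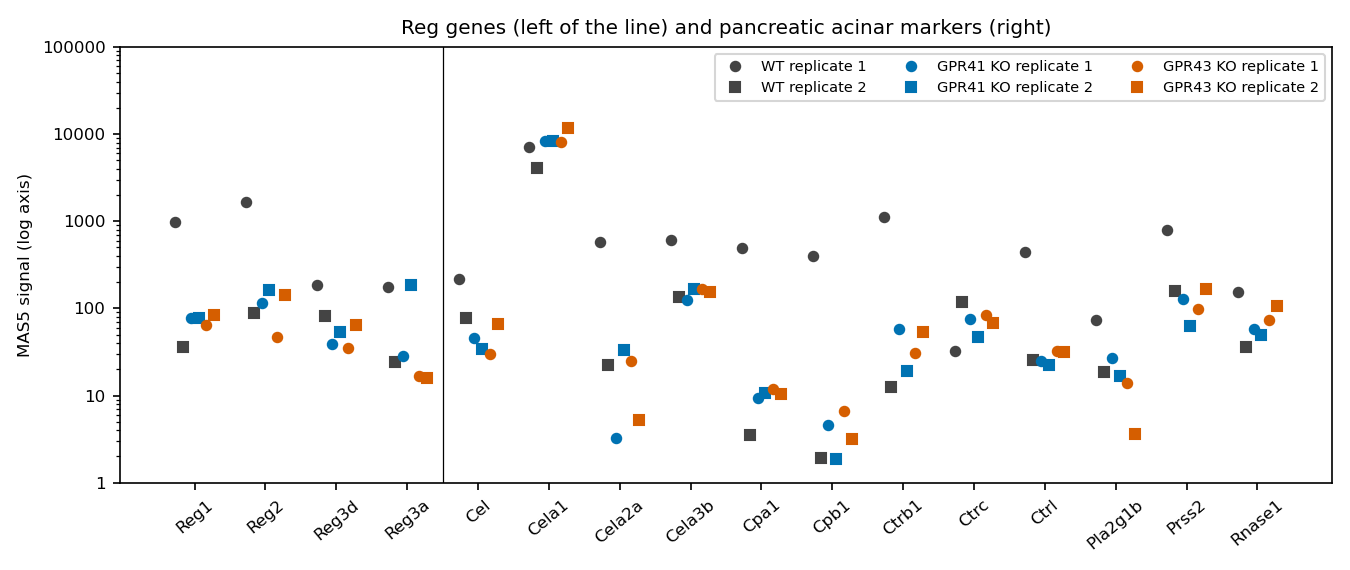
MAS5 signal (log axis) per array of Reg1, Reg2, Reg3d and Reg3a and of 12 pancreatic acinar genes. The point of WT replicate 1 stands apart from the other 5 arrays, at 976 for Reg1 and 492 for Cpa1, but not for Reg3a, Cela1 and Ctrc, and by less than 2-fold for Rnase1.

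Lypd8 (chr11:58379032-58390541), a surface protein of colonocytes that binds flagella and keeps bacteria out of the inner mucus, differed little between arrays. It gave 52396 and 64613 in the WT arrays, 64962 and 72008 in GPR41 KO, and 83199 and 72966 in GPR43 KO. Both knockouts lay above WT without overlap, by a narrow margin in GPR41 KO, as did 24.6% and 27.7% of all tested genes. Group means were 58505 ± 8639 (SD, n = 2), 68485 ± 4982 (SD, n = 2) and 78082 ± 7236 (SD, n = 2). Log2 fold changes of 0.23 ± 0.16 (SE) and 0.42 ± 0.16 (SE) had adjusted p-values of 0.487 and 0.199 in limma. Leaving out the library labelled GPR43 KO replicate 1 moved the second to 0.33 (adjusted p = 0.562). After quantile normalization the log2 differences from WT were 0.07 (adjusted p = 0.727) in GPR41 KO and 0 in GPR43 KO, and GPR43 KO stood 0.07 below GPR41 KO in place of 0.19 above.

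Relatives of the members outside the list numbered 8 with a probe set, of which 5 were tested. Lyz2 was the only one called in either knockout. Ang, the angiogenin expressed widely in tissues, gave 3529 and 3766 in the WT arrays, 4806 and 5944 in GPR41 KO, and 5871 and 4714 in GPR43 KO. Retnla, which alternatively activated macrophages make, gave 711 and 899 in the WT arrays, 674 and 649 in GPR41 KO, and 1371 and 495 in GPR43 KO. Ang2, Lyzl4 and Reg3d did not pass the filter.

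Among 26 other tested antimicrobial and mucosal defence genes, 1 rose and 6 fell in GPR41 KO, and 1 rose and 5 fell in GPR43 KO, with medians of 0.02 in both. In GPR43 KO, 1 rose and 4 fell without the library labelled GPR43 KO replicate 1. Saa3, an acute-phase protein, gave 19930 and 33708 in the WT arrays, 186 and 251 in GPR41 KO, and 546 and 452 in GPR43 KO, and stood at -6.79 and -5.65 in log2 units. Lcn2, a siderophore-binding protein, gave 15634 and 34828 in the WT arrays, 175 and 143 in GPR41 KO, and 280 and 241 in GPR43 KO, and stood at -7.05 and -6.39. S100a8 and S100a9, the subunits of calprotectin in neutrophils, stood at -7.07 and -7.35 in GPR41 KO and at -5.89 and -6.38 in GPR43 KO. These 4 genes kept their calls in every run that left out 1 array. Ccl28, a mucosal chemokine with antimicrobial activity, was the one that rose, by 0.73 (adjusted p = 0.0214) and 0.85 (adjusted p = 0.0136), calls that did not hold throughout. The first was lost without WT replicate 2 (0.0650) and without either GPR41 KO array (0.0540 and 0.144), and the second without GPR43 KO replicate 2 (0.120). Both were lost with the mean over probe sets (0.135 and 0.182), without a trend (0.0740 and 0.0594) and on the other 2 Ccl28 probe sets, where adjusted p-values were 0.0999 to 0.501 in GPR41 KO and 0.153 to 0.707 in GPR43 KO. S100a8 and S100a9 are themselves on the neutrophil list, so its sum says nothing further about their falls. The 14 other neutrophil markers summed to 10887 and 28922 in WT replicates 1 and 2 against 670 to 1215 in the knockout arrays, and their part in the falls of Saa3 and Lcn2 was not tested.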

How the data were processed

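Total RNA of mouse colon (2 µg) was amplified, labelled with biotin and hybridised to 1 Affymetrix mouse array per sample, per the labels. The authors deposited 1 intensity for each probe set of each array, made with MAS5, per the submitters' processing notes, with no version given in the sources used here. Probe sets (45101) were named through the array's annotation: 34958 carried 1 gene symbol, 932 several and 9211 none, and 34754 were matched to RefSeq (GRCm38.p6) by Entrez identifier. Groups were taken from the sample titles.

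Before log2, 18.4 was added to each signal as a pseudocount (the deposited values' 20th percentile), so fold changes of weak genes are understated. For each of 18194 genes the probe set with the highest mean log2 signal was kept, and the 10916 genes above the 40th percentile of mean log2 signal were tested. All 6 arrays entered one linear model of group means (lmFit and eBayes, trend on, limma 3.58.1, R 4.3.3). Residual degrees of freedom were 3, and 8.71 after moderation. Tests were two-sided with Benjamini-Hochberg adjustment over all tested genes and a threshold of 0.05. Errors are SD over arrays for signals and SE of the fit for log2 fold changes. Only 2 arrays per group limit the precision. On simulated data for GPR41 KO against WT (10916 genes, 200 shifted, 10 draws), a log2 shift of 1 was called in 40.6% of shifted genes, beside 3.0 false calls per draw. A shift of 2 was called in 88.6%, beside 7.0. The simulated noise was drawn independently for each gene and array, at each gene's own estimated spread, so these rates leave out array-wide effects.

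The members, gene lists and comparisons were chosen with earlier results of these data known. By rule, the text could name all members, their close relatives, both targeted receptors, up to 4 called genes of each list with the smallest p and all where 5 or fewer passed, and the 3 genes nearest in profile to each called member (root mean square difference of log2 values centred over the 6 arrays). Spink4 in GPR41 KO, the other uncalled deep crypt, macrophage and Paneth cell markers, Mptx1, Pnliprp2, Defa3 and the pancreatic genes were named after their values were seen. Alternatives covered the pseudocount, scaling, filter, choice of probe set, trend, arrays in the fit, a replicate block and leaving out each array. Detection calls and the arrays' raw images were not used here.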

Additional observations from a re-analysis of the deposited data

How the results depend on the processing

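Of 366 refits of a member's fold change, 334 kept its direction and its side of the threshold, 15 lost a call, 3 gained one and 14 turned the direction. For the other named genes, 544 of 648 refits kept both, 96 lost a call, 8 gained one and none turned. The genes called in GPR41 KO (543) became 841 with median centring and 335 with the filter at the 60th percentile, and ranged from 195 to 891 when 1 array was left out. Those in GPR43 KO (432) became 280 with the 60th percentile filter and 217 without the intensity trend, and ranged from 129 to 759. Between the knockouts, 1 gene was called in the fit of 4 arrays and 0 to 3 when 1 array was left out. Median centring moved the median of all tested genes to 0.17 in GPR41 KO and 0.11 in GPR43 KO. With it, the share of called genes that were higher was 65% and 52.6%, against 37.4% and 39.1% as reported, so fold changes are relative to the authors' scaling. The filter at the 60th percentile gave shares of 49.3% and 50%, and the fit without a trend 25.1% and 22.6%. Members called in GPR43 KO (2) were 1 with the mean over probe sets and 0 without a trend, and 0 to 2 when 1 array was left out. In GPR41 KO, 2 to 3 were called. Reg3b lost its GPR41 KO call without a filter (adjusted p = 0.0717), with the 60th percentile filter (0.0615), with every probe set tested (0.0576) and without a trend (0.117). Without a trend, the GPR43 KO calls of Reg4 (0.0726) and Lyz1 (0.0568) were lost. Median centring turned Retnlb in GPR41 KO to 0.14, and quantile normalization turned Lypd8 between the knockouts to -0.066. Leaving out 1 array, against WT, gave -0.72 to 0.27 for Reg3g and -0.99 to 0.92 for Retnlb in GPR41 KO, and -1.04 to 0.11 for Reg3b and -0.39 to 1.21 for Retnlb in GPR43 KO. Between the knockouts it gave -0.93 to 0.39 for Reg4, -0.51 to 1.41 for Retnlb, -0.996 to 1.91 for Ang4 and -0.022 to 0.48 for Lyz1. The cause of these changes was not tested. Replicate numbers were not used to pair the arrays in the main fit. Over 10916 genes, the differences between replicates 1 and 2 correlated at 0.107 between WT and GPR41 KO. They correlated at -0.271 between WT and GPR43 KO and at -0.0537 between the knockouts. Such correlations over all genes cannot decide whether arrays of the same number share something that moves only some genes. With the replicate block, 401, 295 and 0 genes were called, and 3, 3 and 0 members. In that fit Ang4 passed in GPR41 KO (2.12, adjusted p = 0.0005) and GPR43 KO (2.57, 0.000189), and Reg3b in GPR41 KO did not (0.0859). Weak signals near background limit what could be read for Reg3a, Itln1 and the third Lyz1 probe set.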

Other observations

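Crypt stem and proliferating cells were read from a marker list. Of 11 with a probe set, 10 were tested and 0 passed in limma in either knockout, with median log2 fold changes of 0.09 and 0.19. Their summed signal was 23910 and 26715 in WT, 25174 and 24003 in GPR41 KO, and 24550 and 23051 in GPR43 KO, so the groups overlapped. Small intestine genes, 16 with a probe set, summed to 21813 and 17851 in WT, 31731 and 27475 in GPR41 KO, and 30217 and 27302 in GPR43 KO, where all 4 knockout arrays lay above WT. Squamous epithelium markers, 15 with a probe set, summed to 3865 and 7247 in WT, 2862 and 2017 in GPR41 KO, and 3062 and 2013 in GPR43 KO, all 4 knockout arrays below WT. The part of these differences in tissue in the members' values was not tested.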
